A study of Homo sapiens with 8 samples.

Results

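Integrins and laminins are the receptor and ligand sides of cell attachment to the basement membrane, and 35 of their genes were examined here among 19974 protein-coding genes. The 35 were taken by name, 25 integrin subunits and 10 laminin chains, by a rule that uses no measured value. The assay was ATAC-seq: Tn5 transposase cuts accessible DNA and tags it with adapters, so that read density reports accessibility and not RNA or protein. All 8 libraries came from A2780, an established ovarian cancer cell line, labelled genotype WT in each group. The 4 groups of 2 libraries were control cells (treatment labelled NA), the cisplatin-resistant derivative (CpR, labelled as treated with cisplatin), the paclitaxel-resistant derivative (TxR, labelled as treated with paclitaxel) and the derivative resistant to both (TxCpR, labelled with both drugs). The whole contrast rests on 1 cell line and 1 derivative of each kind. Doses, times and the presence of drug at harvest are not stated by the labels. Separate cultures within a group are not stated either. A p-value here therefore rests on the spread between libraries of the same group, which may be technical. That spread is pooled over the 4 groups and drawn largely from the trend over all peaks, not from the single peak.

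An integrin is a receptor of 1 alpha and 1 beta subunit that spans the plasma membrane, binds matrix or another cell outside and connects through talin and kindlin to actin inside. The alpha subunit largely sets the ligand: collagens, laminins, or proteins with the RGD tripeptide such as fibronectin and vitronectin. Laminins are trimers of an alpha, a beta and a gamma chain that form the sheet on which basement membranes are built. In ovarian cancer, integrin contact with the mesothelial matrix is a step of peritoneal spread, and adhesion through integrins has long been studied for its part in drug resistance.

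Each gene was followed at its gene-end peak, which is the peak of highest mean level within 1 kb of either end of the gene's span, at its strongest peak anywhere over the span, and over every peak of the span. Levels are in CPM, reads scaled to a common total over the peaks of each library. A peak was called higher or lower when limma on log2(CPM + 0.5), fitted to all 158698 tested peaks, gave a Benjamini-Hochberg adjusted p under 0.05, and every difference below is on that log2 scale, which understates the change of low peaks. Where a regional median is named, the median difference of all tested peaks within 2.5 Mb was subtracted. A gene-end peak was found for 33 of the 35, all but ITGAL and ITGB6, and all 33 passed the filter on low values. Their mean level over the libraries ran from 1.76 to 43.0 CPM with a median of 8.44, against 20.1 for the gene ends of all 15952 protein-coding genes that have one. Of the 33 gene-end peaks, 15 covered a start site listed by RefSeq, 9 did not, and 9 belonged to genes with no start listed in the table used. Among genes with a listed start, the peaks of ITGA10, ITGAM, ITGB5 and ITGB7 lay at the other end of the gene. For the 9 with none listed, which end holds the start was not determined here. Those of ITGAX and ITGB4 lay at the higher-coordinate end of the span. Those of ITGA1, ITGA7 and ITGAE also served as gene end for a neighbour (PELO, BLOC1S1 and NCBP3).

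Libraries held 7693492 to 9304798 reads in peaks, so 1 read was worth 0.107 to 0.130 CPM and the 3 reads that a count of 0 allows came to 0.322 to 0.390 CPM, counting error only. Over peaks, the correlation within a group was 0.926 to 0.933. Of 15 ovarian carcinoma markers, 12 had a gene-end peak (KRT19, MUC16 and ESR1 had none), and their summed level was 62.0 to 72.8 CPM in control, 59.2 to 59.3 in CpR, 53.2 to 53.5 in TxR and 57.8 to 59.1 in TxCpR. Peaks were found for 8 of 12 haematopoietic markers (none for PTPRC, CD3D, MS4A1 or CD53), with sums of 78.1 to 78.6, 88.9 to 89.0, 97.9 to 98.0 and 85.5 to 88.8 CPM in the same order, and for 9 of 10 fibroblast markers (all but FAP), with 70.3 to 76.3, 92.5 to 96.1, 86.7 to 89.1 and 101 to 103 CPM. Only 3 of 9 endothelial markers had one (none for PECAM1, CDH5, VWF, TEK, TIE1 or EMCN), with 13.4 to 18.1, 17.2 to 17.4, 3.93 to 4.13 and 5.16 to 6.55 CPM. The part of these levels in the results below was not tested.

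The promoters of 4 subunits are shown because the results turn on them: ITGAV and ITGA8, the members called lower in all 3 resistant derivatives, ITGA2, called lower in both single-resistant ones, and ITGB1, the shared beta subunit with which all of them can pair. Each is the 250 bases upstream of the start site on the strand of the gene, from RefSeq on GRCh38.p14, and the measured gene-end peak covers the start. They lie at chr2:186589806-186590055 (ITGAV, plus strand), chr10:15719923-15720172 (ITGA8, minus strand), chr5:52989102-52989351 (ITGA2, plus strand) and chr10:32958231-32958480 (ITGB1, minus strand). Capitals mark matches on either strand to the GC box GGGCGG or the TEAD motif CATTCC.
ITGAV: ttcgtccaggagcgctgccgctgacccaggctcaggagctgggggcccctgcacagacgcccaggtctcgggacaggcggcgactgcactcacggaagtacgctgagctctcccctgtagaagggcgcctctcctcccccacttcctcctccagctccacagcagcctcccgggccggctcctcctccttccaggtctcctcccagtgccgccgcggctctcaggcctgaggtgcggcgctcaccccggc
ITGA8: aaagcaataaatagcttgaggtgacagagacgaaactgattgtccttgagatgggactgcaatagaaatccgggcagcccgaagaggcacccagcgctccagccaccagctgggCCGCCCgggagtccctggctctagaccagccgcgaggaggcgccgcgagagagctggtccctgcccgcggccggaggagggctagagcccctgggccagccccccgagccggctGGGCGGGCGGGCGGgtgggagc
ITGA2: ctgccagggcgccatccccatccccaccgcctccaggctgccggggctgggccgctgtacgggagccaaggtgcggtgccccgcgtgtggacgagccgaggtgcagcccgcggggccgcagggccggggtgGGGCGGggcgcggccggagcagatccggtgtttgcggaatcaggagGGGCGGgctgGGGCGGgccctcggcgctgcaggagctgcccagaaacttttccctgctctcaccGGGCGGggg
ITGB1: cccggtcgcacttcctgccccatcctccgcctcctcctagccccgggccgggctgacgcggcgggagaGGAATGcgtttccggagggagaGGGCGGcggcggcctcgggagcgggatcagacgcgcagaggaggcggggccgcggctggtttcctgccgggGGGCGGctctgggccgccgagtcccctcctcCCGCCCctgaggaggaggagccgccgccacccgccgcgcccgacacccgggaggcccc
These windows are GC-rich, with 70.8% G and C in ITGAV, 68.0% in ITGA8, 76.4% in ITGA2 and 78.4% in ITGB1. ITGAV held no match to any of the 6 motifs searched. ITGA8 and ITGA2 held 4 GC boxes each, with 3 of the matches in ITGA8 overlapping, and ITGB1 held 3 together with 1 TEAD match. Over the 16 listed starts under gene-end peaks of the 15 members, 7 had a GC box (42.6% of all 35116 listed promoters) and 3 had the TEAD motif (11.9%). The AP-1 motif TGANTCA was found at 1 start, that of LAMB3 (6.57% of all), and the RUNX motif TGTGGT (11.0%), the E-box CACGTG (6.34%) and the ETS motif CCGGAAG (8.52%) at 1 start each, all in ITGA6. A match is a description of letters in the window and no more.

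In the cisplatin-resistant cells the gene ends of this family fell more often than they rose, as gene ends did at large. Of 33 members, 3 were called higher (ITGB2, ITGB8 and LAMB3) and 12 lower, with a median difference of -0.12. Over all protein-coding gene ends 11.1% were higher and 28.6% lower, with a median of -0.19. In the paclitaxel-resistant cells the counts leaned to lower more strongly: none was higher, against 12.7% of all gene ends, and 8 were lower, against 9.68%, with a median of -0.38 beside 0.01. At an unadjusted p under 0.05, limma put 2 members higher and 13 lower in TxR, and edgeR on recovered reads called 4 higher and 7 lower. TMM scaling gave 5 members higher and 7 lower in TxR, and it moved the median of all tested peaks from -0.14 to -0.01. In the dual-resistant cells 2 members were higher (ITGB2 and ITGB5), against 4.86%, and 3 lower (ITGA8, ITGAV and LAMC1), against 14.8%, with a median of -0.18 beside -0.13. TMM scaling gave 2 higher and 9 lower there. A lower bulk signal can come from fewer cells with the site open or from less signal in each, and these cannot be told apart.

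**Figure D1:**
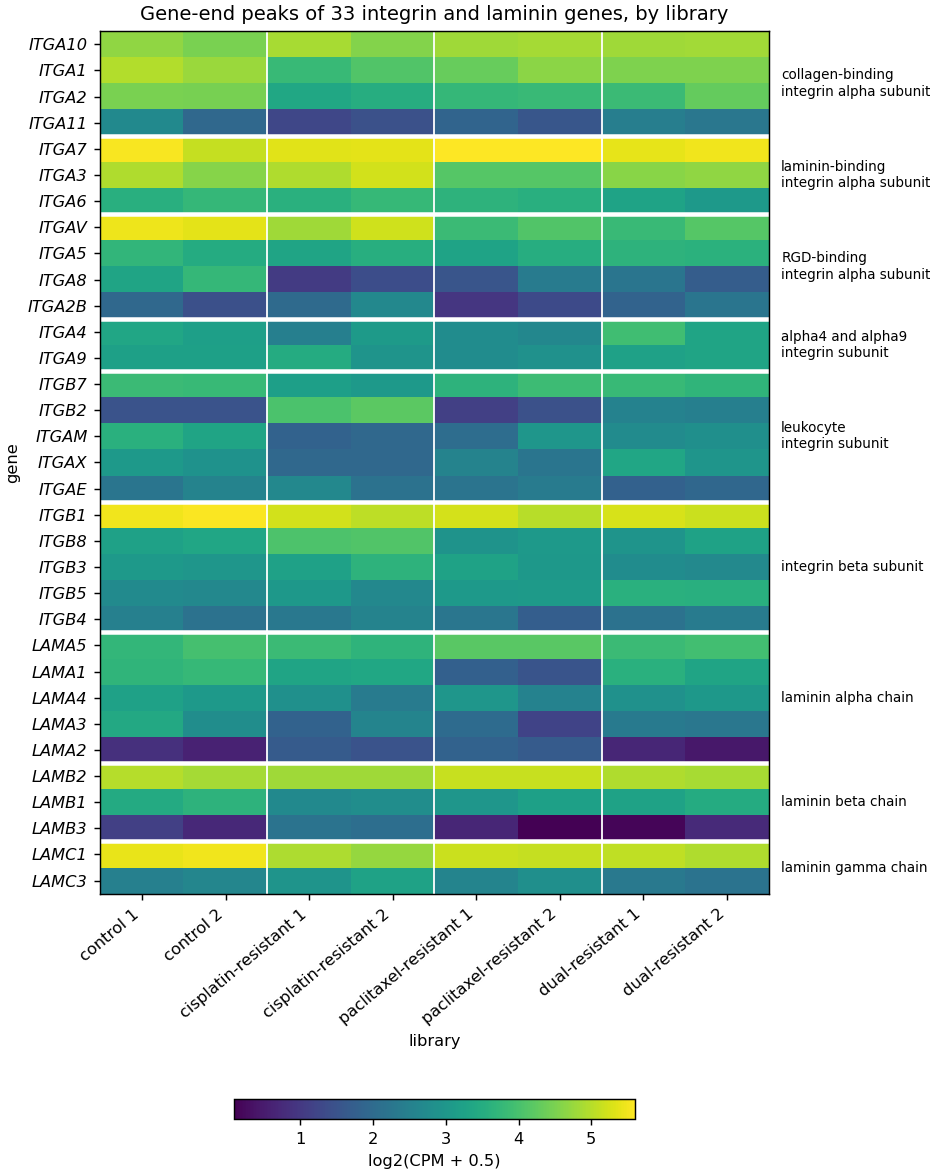
Level of the gene-end peak, as log2(CPM + 0.5), for 33 genes (rows, ordered by role) in each of the 8 libraries (columns, 2 per group). ITGB2 is highest in the CpR libraries, while ITGAV and ITGA8 are lower in every resistant library than in either control library.

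At the strongest peak over each gene, 4 of 35 members were higher in CpR, against 10.7% of all genes, and 13 lower, against 29.2%. LAMA2 was among the 4 higher, and its peak ranked as strongest only through its CpR levels. In TxR 1 was higher (ITGB5), against 12.9%, and 13 were lower, against 9.94%. TMM scaling gave 6 higher and 9 lower for TxR. In TxCpR limma called none higher, against 5.44%, and 2 lower (ITGAV and ITGA8), against 14.1%. At an unadjusted p under 0.05 the TxCpR counts were 2 higher and 12 lower, edgeR called 0 higher and 11 lower, and TMM scaling gave 0 higher and 10 lower. Leaving out control library 2 brought the CpR count of lower peaks from 13 to 8, and leaving out control library 1 brought that of TxR from 13 to 7. The strongest peak was the gene-end peak itself in 19 members.

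No call against control was made in any of the 3 comparisons at 15 gene ends: ITGA2B, ITGA4, ITGA5, ITGA6, ITGA7, ITGA9, ITGA10, ITGAE, ITGB3, ITGB4, LAMA2, LAMA4, LAMA5, LAMB2 and LAMC3. Subtracting the regional median gave calls at some of them. Those in CpR were LAMA4 (-1.12), ITGA10 (0.53) and LAMB2 (-0.35). Those in TxR were LAMA4 (-1.08), LAMA5 (0.55), ITGA10 (0.48) and ITGA7 (0.37), and in TxCpR ITGA6 (-0.86). Most of the called differences were modest, as the plot of differences by gene shows, and the members that moved by 1 log2 unit or more were ITGA8, ITGAV, ITGA2, ITGAM, ITGAX, ITGB2, LAMA1, LAMA3 and LAMB3.

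**Figure D2:**
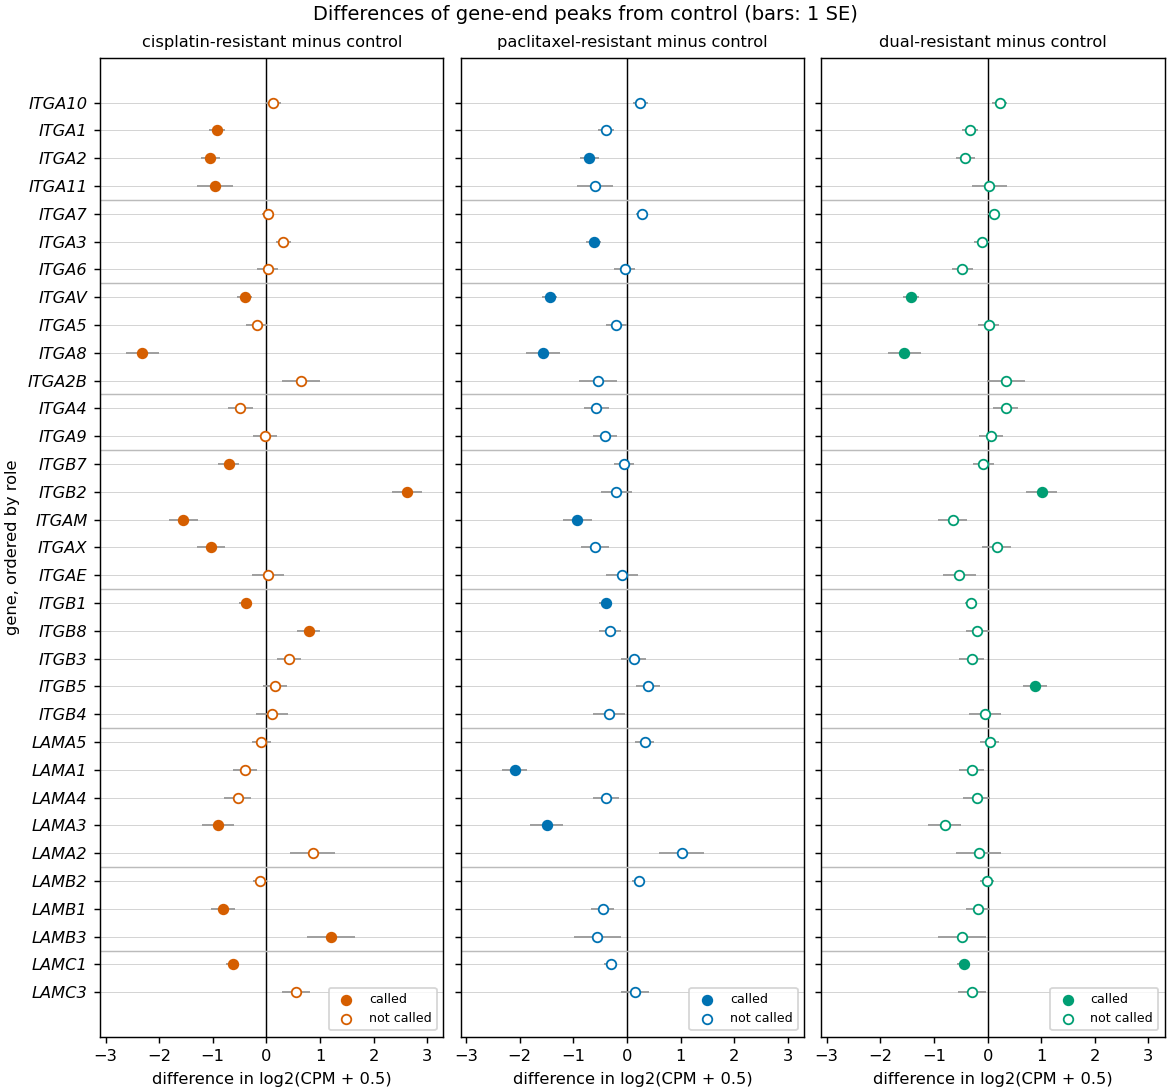
Difference from control in log2(CPM + 0.5) at the gene-end peak of 33 genes, ordered by role, for CpR, TxR and TxCpR. Points are limma estimates from 2 libraries per group, bars are 1 standard error, and filled points have an adjusted p under 0.05. ITGB2 stands furthest to the right in CpR, at 2.62, and LAMA1 furthest to the left in TxR, at -2.10.

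Among the RGD-binding alpha subunits, 2 of 4 were lower in each derivative and none was higher. Of all gene ends 28.6% were lower in CpR, 9.68% in TxR and 14.8% in TxCpR. ITGAV, the alpha-v subunit that pairs with ITGB1, ITGB3, ITGB5, ITGB6 or ITGB8 and binds vitronectin and latent TGF-beta, had its gene-end peak at chr2:186589491-186590491. It measured 43.8 and 41.1 CPM in control, 27.8 and 36.5 in CpR, 14.0 and 16.7 in TxR and 13.7 and 17.3 in TxCpR. The 2 paclitaxel-selected derivatives lay together at the bottom, CpR lay between them and control, and no resistant library reached the control levels. The difference was -1.44 ± 0.15 (SE; adjusted p = 1.06e-14) in TxR, -1.43 ± 0.15 (2.74e-14) in TxCpR and -0.41 ± 0.15 (0.0216) in CpR. TxCpR was below CpR by -1.02 (adjusted p = 5.05e-09), while TxCpR and TxR differed by 0.01 ± 0.15 (0.970). The small CpR call of ITGAV was lost under 8 alternatives, among them TMM scaling, the regional median (-0.20) and leaving out control library 1, control library 2 or CpR library 1.

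ITGA8, the alpha subunit of the nephronectin receptor, had its gene-end peak at chr10:15719029-15720029. It measured 9.36 and 13.0 CPM in control, 1.58 and 2.10 in CpR, 2.43 and 4.72 in TxR and 4.20 and 2.79 in TxCpR. All 6 resistant libraries lay below both control libraries, and CpR was the lowest group. The differences were -2.31 ± 0.31 (adjusted p = 1.76e-09), -1.56 ± 0.31 (5.23e-05) and -1.55 ± 0.31 (8.17e-05). The 3 calls of ITGA8 were kept under every alternative run. ITGA8 and ITGAV were the 2 members called lower in all 3 derivatives, for ITGAV with the limit on CpR given above. ITGA5, the alpha subunit of the main fibronectin receptor, ranged only from 9.23 to 12.6 CPM over the 8 libraries, and ITGA2B, the platelet alpha subunit, from 1.46 to 5.85.

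Among the collagen-binding alpha subunits, 3 of 4 were lower in CpR, 1 in TxR and none in TxCpR. The shares of all gene ends were 28.6%, 9.68% and 14.8%, and 4 genes are few to set beside them. ITGA2, the alpha subunit of a collagen and laminin receptor, had its gene-end peak at chr5:52989280-52990280. It measured 22.1 and 21.8 CPM in control, 9.79 and 11.0 in CpR, 13.0 and 13.6 in TxR and 14.0 and 19.0 in TxCpR. All 6 resistant libraries were below control, in the order CpR, TxR, TxCpR with no overlap between groups. The differences were -1.04 ± 0.17 (adjusted p = 5.50e-07), -0.70 ± 0.17 (0.0014) and -0.42 ± 0.17 (0.104), so that of TxCpR was not called, and the TxR call was lost after the regional median was subtracted (-0.40). ITGA1, another collagen receptor subunit, also on chromosome 5, measured 30.7 and 26.9 CPM in control and 13.5 and 16.6 in CpR, a difference of -0.92 ± 0.15 (adjusted p = 3.18e-07). ITGA11, the fibroblast collagen receptor subunit, measured 5.98 and 3.35 CPM in control and 1.91 and 2.22 in CpR (-0.96 ± 0.33, adjusted p = 0.0182), a call lost without control library 1 or CpR library 1 and after the regional median (-0.78). ITGA10, the cartilage collagen receptor subunit, stayed between 22.0 and 28.8 CPM in all 8 libraries.

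Of the laminin-binding alpha subunits only ITGA3 was called, and only in TxR. ITGA3, which pairs with ITGB1 to bind epithelial laminins, measured 30.3 and 23.6 CPM in control, 30.4 and 36.6 in CpR, 17.1 and 17.2 in TxR and 24.2 and 25.1 in TxCpR at chr17:50055372-50056372. Only TxR lay clear of the control libraries on the low side, with a difference of -0.62 ± 0.14 (adjusted p = 0.000363), against 0.31 (0.0743) in CpR and -0.11 (0.685) in TxCpR, and that call was lost without control library 1. ITGA6, the laminin receptor subunit often used to mark epithelial progenitors, measured 11.3 and 13.0 CPM in control, 11.6 and 13.2 in CpR, 12.1 and 11.4 in TxR and 9.27 and 7.95 in TxCpR at chr2:172426982-172427982. Control, CpR and TxR overlapped, and the TxCpR libraries were the lowest 2. None of its differences from control was called (0.03, -0.04 and -0.47, the last with an adjusted p of 0.0985 and a standard error of 0.20). The TxR value of ITGA6 turned positive, to 0.11, under TMM scaling, and TMM made the TxCpR value a called -0.57. Subtracting the regional median made the TxCpR value of ITGA6 a called -0.86 (adjusted p = 0.000602). ITGA7, the muscle laminin receptor subunit, ran from 34.2 to 48.0 CPM with no call in any comparison.

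The alpha-4 and alpha-9 subunits, which bind VCAM1, fibronectin and tenascin, showed no called difference from control. ITGA4 measured 9.75 and 8.62 CPM in control, 5.06 and 8.07 in CpR, 6.31 and 5.73 in TxR and 14.6 and 9.35 in TxCpR, and TxCpR was above both CpR (0.82) and TxR (0.90). Those 2 differences came to -0.072 and -0.0060 once the regional median was subtracted, and both calls were also lost without TxCpR library 1. ITGA9 kept between 6.31 and 10.7 CPM.

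There are 6 subunits of leukocyte integrins, and in CpR they moved in opposite directions: 1 of 5 with a gene-end peak was higher and 3 were lower. Of all gene ends 11.1% were higher and 28.6% lower there. The strongest peak over ITGB2, the common beta subunit of those receptors, had no call against control. Its gene-end peak, a different one, lay at chr21:44927453-44928453. It measured 2.34 and 2.32 CPM in control, 16.0 and 17.9 in CpR, 1.70 and 2.25 in TxR and 5.32 and 5.05 in TxCpR. CpR lay far above every other library, TxCpR lay between, and TxR was at or just under control. The differences were 2.62 ± 0.29 in CpR (adjusted p = 5.61e-13), -0.20 (0.706) in TxR and 1.01 ± 0.29 (0.00828) in TxCpR, and the last was no longer called without TxCpR library 1.

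ITGAM and ITGAX, alpha subunits that pair with ITGB2 in myeloid cells and neighbour each other on chromosome 16, went the other way. ITGAM measured 11.4 and 9.40 CPM in control, 3.04 and 3.39 in CpR, 3.64 and 7.42 in TxR and 6.18 and 6.66 in TxCpR, at the end of the gene far from its listed start. ITGAX measured 7.93 and 6.95 CPM in control, 3.38 and 3.39 in CpR, 5.34 and 4.16 in TxR and 9.64 and 7.31 in TxCpR. That ITGAX peak lay at the higher-coordinate end of the span, and no start was listed to tell which end it is. CpR was the lowest group for both, and for ITGAX the TxCpR libraries overlapped control. The CpR differences were -1.55 ± 0.27 (adjusted p = 1.23e-06) for ITGAM and -1.03 ± 0.26 (0.00109) for ITGAX, and ITGAM was also lower in TxR (-0.92, 0.0077), a call lost without control library 1 or TxR library 1 and after the regional median (-0.73). The gene-end peak of ITGB7, the gut-homing beta subunit, lay at the end far from its listed start. It fell from 13.8 and 13.5 CPM in control to 8.67 and 7.72 in CpR (-0.70, adjusted p = 0.002). The strongest peak over ITGB7 was a different one and had no call against control. ITGAE ran from 2.97 to 5.85 CPM with no call. ITGAL had no gene-end peak, and its strongest peak ran from 0.486 to 4.39 CPM with no call against control.

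**Figure D3:**
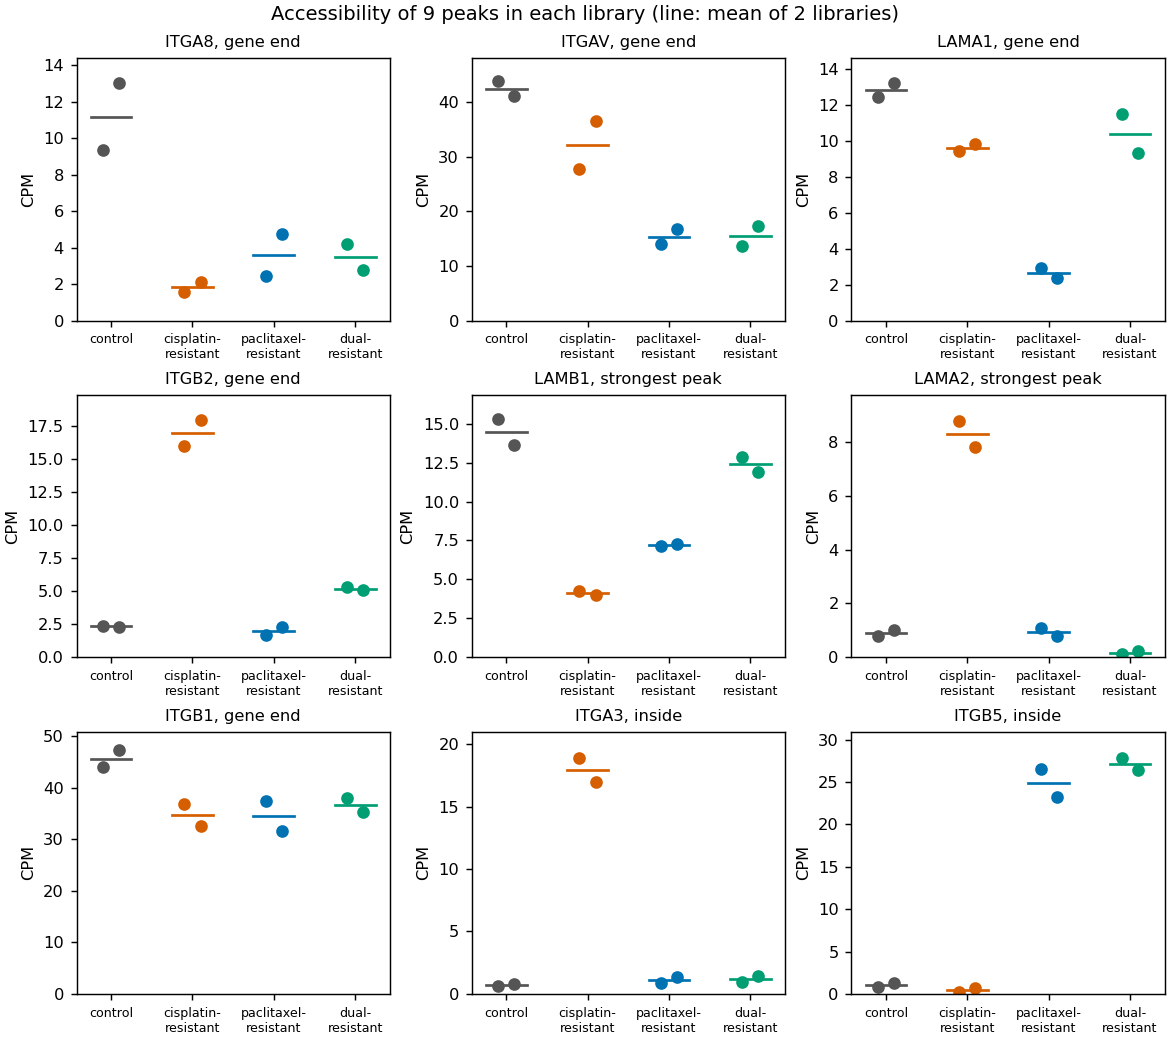
CPM in each library (points, 2 per group) at 9 peaks, with a line at the mean of each pair. ITGB2, LAMA2 and the inside peak of ITGA3 are highest in the CpR libraries, LAMA1 is lowest in TxR, and the inside peak of ITGB5 is above 20 CPM in TxR and TxCpR and under 2 CPM in control and CpR.

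Of the other beta subunits, ITGB1, the partner of most alpha chains, had among the strongest gene-end peaks of the family, at chr10:32958099-32959099. It measured 43.9 and 47.2 CPM in control, 36.9 and 32.6 in CpR, 37.4 and 31.7 in TxR and 38.0 and 35.3 in TxCpR. All 6 resistant libraries lay below control, and the 3 resistant groups overlapped each other. The differences were small, at -0.39 ± 0.12 (adjusted p = 0.00601), -0.40 ± 0.12 (0.00895) and -0.31 ± 0.12 (0.0609). The CpR call was lost without control library 2 or CpR library 2 and the TxR call without control library 2 or TxR library 2, and both were lost under median-ratio scaling and after the regional median, which left -0.02 and -0.07.

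ITGB8, a beta subunit that activates latent TGF-beta with ITGAV, measured 8.97 and 9.65 CPM in control, 16.1 and 16.7 in CpR, 7.04 and 7.75 in TxR and 7.17 and 9.14 in TxCpR. Only CpR stood above control (0.79 ± 0.21, adjusted p = 0.00147). ITGB5, the vitronectin receptor beta subunit, had its gene-end peak at the end far from its listed start, where it measured 6.11 and 5.79 CPM in control and 11.5 and 11.3 in TxCpR (0.88 ± 0.23, adjusted p = 0.00312). The strongest ITGB5 peak, at chr3:124887014-124888014, did cover the start, and there the levels were 14.6 and 13.0 CPM in control, 25.1 and 19.6 in CpR, 20.0 and 23.7 in TxR and 19.3 and 15.9 in TxCpR. Every resistant library was above control at the ITGB5 start, with calls in CpR (0.67 ± 0.16, adjusted p = 0.000415) and TxR (0.65 ± 0.16, 0.00139) and none in TxCpR (0.34, 0.164). The TxR call was lost without TxR library 2.

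ITGB6, an epithelial beta subunit without a gene-end peak, measured 4.29 and 5.28 CPM in control, 1.13 and 1.64 in CpR, 2.19 and 1.69 in TxR and 3.83 and 3.44 in TxCpR at its strongest peak, chr2:160109665-160110665. It was lower in CpR (-1.50 ± 0.36, adjusted p = 0.000557) and in TxR (-1.12 ± 0.36, 0.0212), and the TxR call was lost without control library 1, control library 2 or TxR library 2. ITGB3, the platelet and vitronectin receptor subunit, and ITGB4, the hemidesmosome subunit, had no call against control, with 5.91 to 12.04 and 2.81 to 5.38 CPM.

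Of the 10 laminin chains, 1 was called higher and 3 lower at the gene end in CpR, none and 2 in TxR, and none and 1 in TxCpR. Over all gene ends 11.1% were higher and 28.6% lower in CpR, 12.7% and 9.68% in TxR, and 4.86% and 14.8% in TxCpR. LAMA1, the alpha chain of embryonic laminin, measured 12.5 and 13.3 CPM in control, 9.45 and 9.82 in CpR, 2.91 and 2.36 in TxR and 11.5 and 9.35 in TxCpR at chr18:7117155-7118155. Only TxR was far below the rest, by -2.10 ± 0.23 (adjusted p = 5.04e-13), and TxCpR exceeded TxR by 1.80 (3.13e-10). LAMA3, the alpha chain of the laminin under hemidesmosomes, measured 10.1 and 6.44 CPM in control, 3.04 and 5.50 in CpR, 3.52 and 1.80 in TxR and 4.57 and 4.30 in TxCpR at chr18:23688888-23689888. All resistant libraries were under control, with calls in TxR (-1.50 ± 0.30, adjusted p = 6.15e-05) and CpR (-0.90 ± 0.30, 0.015) but not in TxCpR (-0.80, 0.0659). The CpR call of LAMA3 was lost without control library 1 or CpR library 1 and after the regional median (-0.54).

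LAMA2, the alpha chain of muscle laminin, was open in CpR at a peak inside the gene, its strongest, at chr6:129501420-129502420. It measured 0.780 and 1.03 CPM in control, 8.78 and 7.83 in CpR, 1.09 and 0.787 in TxR and 0.124 and 0.215 in TxCpR, the last under the level that a count of 0 allows. CpR exceeded control by 2.65 ± 0.45 (adjusted p = 7.82e-07), and the gene end of LAMA2, at 0.860 to 3.04 CPM, had no call against control. The inside peak is the strongest by its mean over all 8 libraries, a rank that its CpR levels give it. The choice of that peak is therefore not independent of the CpR difference. LAMA4 (4.68 to 8.97 CPM) and LAMA5 (12.3 to 17.8 CPM), the alpha chains of endothelial and of epithelial laminins, had no call against control at the gene end.

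LAMB1, the common beta chain, had 2 neighbouring peaks at 1 end. The nearer, at chr7:108002097-108003097, measured 10.5 and 11.97 CPM in control, 5.96 and 6.43 in CpR, 7.41 and 8.77 in TxR and 9.15 and 10.6 in TxCpR. The other, at chr7:108001075-108002075 and the strongest over LAMB1, measured 15.3 and 13.6 CPM in control, 4.28 and 3.98 in CpR, 7.16 and 7.30 in TxR and 12.9 and 11.9 in TxCpR. Both were lowest in CpR and close to control in TxCpR, and the strongest peak separated the groups without overlap. The differences at the strongest peak were -1.69 ± 0.22 (adjusted p = 2.78e-10) in CpR, -0.95 ± 0.22 (0.000455) in TxR and -0.22 (0.592) in TxCpR. The nearer peak was called in CpR alone (-0.81 ± 0.22, 0.00196), and that call was lost after the regional median was subtracted (-0.49).

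LAMB3, the beta chain of that hemidesmosome laminin, gave opposite directions at 2 sites in CpR. Its gene end, at chr1:209650812-209651812, rose from 1.69 and 1.16 CPM to 4.05 and 3.74 (1.21 ± 0.44, adjusted p = 0.0266), a call lost without control library 2, CpR library 1 or CpR library 2. Its strongest peak, inside the gene at chr1:209627458-209628458, fell from 15.5 and 14.2 CPM to 6.75 and 6.78 (-1.07 ± 0.21, adjusted p = 1.57e-05), a call lost after the regional median was subtracted (-0.50). LAMB2, a neuromuscular and kidney beta chain, kept between 27.5 and 34.7 CPM with no call against control.

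LAMC1, the common gamma chain, measured 42.1 and 44.4 CPM in control, 29.8 and 25.8 in CpR, 35.3 and 34.4 in TxR and 32.9 and 30.3 in TxCpR at chr1:183022346-183023346. All resistant libraries lay below control, with CpR lowest. The differences were -0.63 ± 0.12 (adjusted p = 1.26e-05) in CpR, -0.31 ± 0.12 (0.0692) in TxR and -0.45 ± 0.12 (0.005) in TxCpR. Subtracting the regional median ended the CpR call (-0.28) and turned the TxR value to 0.01, and the TxCpR call was lost without control library 2 or TxCpR library 2. The strongest peak over LAMC1, a different one, was called against control only in CpR (-0.51). That call was lost under cyclic loess scaling and after the regional median. TxR and TxCpR exceeded CpR at that peak by 0.82 and 0.65. LAMC3 ran from 4.08 to 9.12 CPM with no call against control.

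Over the whole spans, 285 tested peaks lay on the 35 genes. In CpR 69 were higher and 41 lower, while among all tested peaks 18.3% were higher and 14.9% lower. In TxR 5 were higher and 52 lower, against 7.26% and 9.17%, and in TxCpR 13 were higher and 16 lower, against 8.11% and 5.39%. Many of these calls lay on few genes. ITGAV and ITGB1 held 16 and 13 of the lower peaks in TxR, and 5 and 8 of those in TxCpR. ITGB5 held 7 of the higher peaks in TxCpR. These counts therefore do not describe the 35 genes evenly. The median difference was 0.09 in CpR (all tested peaks -0.09), -0.35 in TxR (-0.14) and -0.04 in TxCpR (0.08). Under TMM scaling the TxR count was 15 higher and 42 lower and the TxCpR count 10 higher and 27 lower. The CpR count of lower peaks fell to 26, 21 or 24 without control library 1, control library 2 or CpR library 1, and the TxR count of lower peaks to 30 without control library 1. Without TxR library 1, 3 were higher in TxR. The TxCpR counts fell to 8, 6 or 6 higher without control library 1, TxCpR library 1 or TxCpR library 2, and to 9 lower without control library 2 or TxCpR library 1.

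Away from the gene ends the CpR direction changed, as it did over all genes. Of 230 peaks inside the spans 64 were higher (27.8%) and 26 lower (11.3%). Of the 70257 inside peaks of all protein-coding genes 19.6% were higher and 11.96% lower, so the lower share was near the background. In TxR 4 inside peaks were higher and 40 lower (5.71% and 8.35% of all), and in TxCpR 12 were higher and 12 lower (7.21% and 3.89%). Median differences inside the spans were 0.20, -0.37 and -0.02 in that order, against -0.02, -0.16 and 0.10 for inside peaks of all genes.

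**Figure D4:**
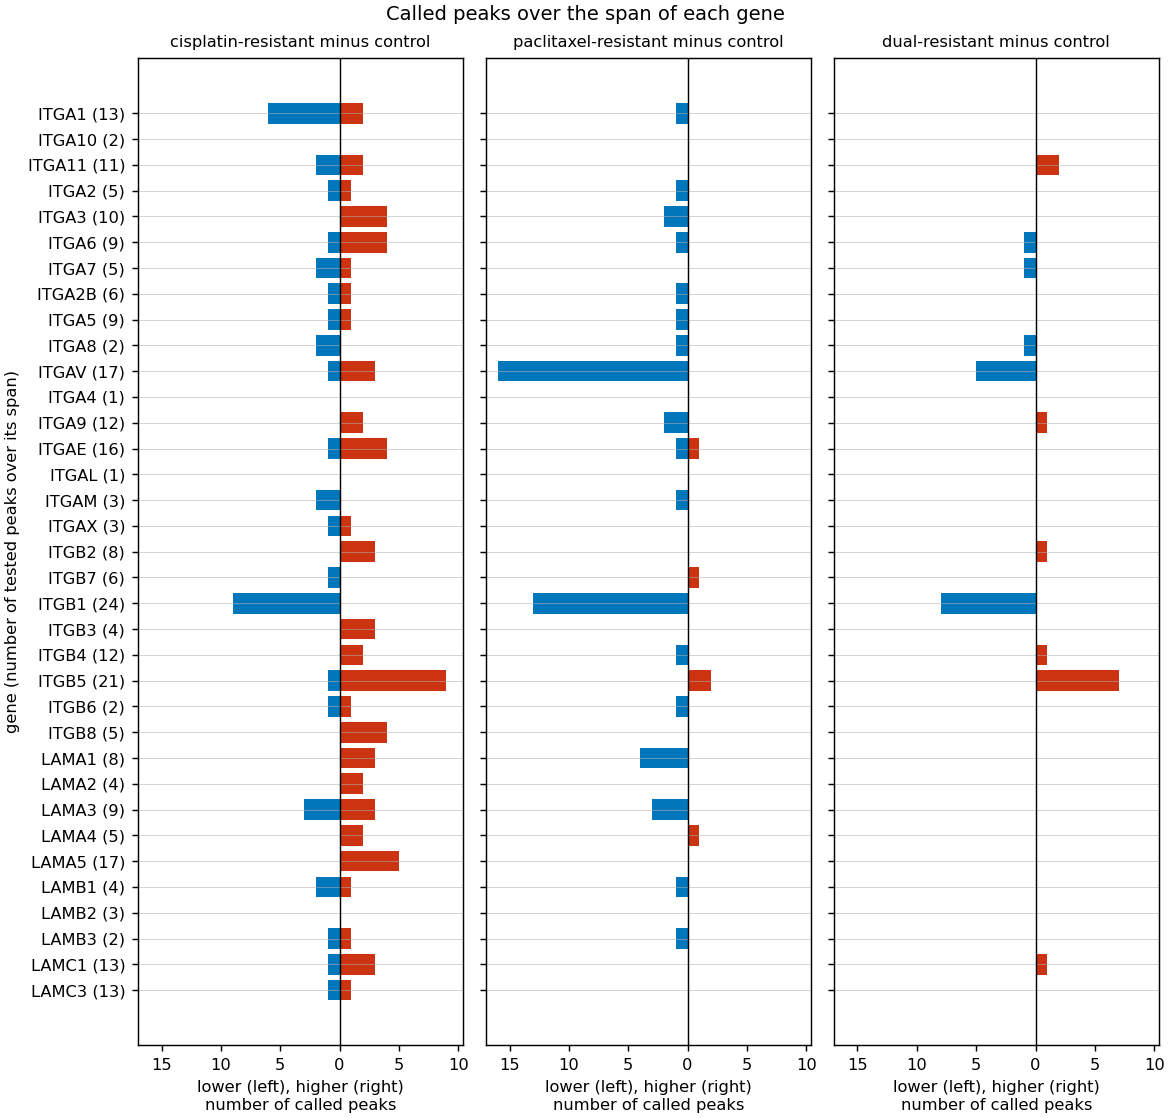
Number of peaks over each gene's span called higher (right) or lower (left) than control in CpR, TxR and TxCpR, with the number of tested peaks in brackets. In TxR most of the lower calls fall on ITGAV, with 16, and ITGB1, with 13.

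Several members held peaks inside the span that were high in CpR alone, among them ITGA3 and ITGA5, whose gene ends were not called in CpR, and ITGB8, whose gene end was higher. Inside ITGA3, at chr17:50061917-50062917, levels were 0.650 and 0.772 CPM in control, 18.9 and 17.0 in CpR, 0.850 and 1.35 in TxR and 0.989 and 1.40 in TxCpR. Inside ITGA5, at chr12:54411097-54412097, they were 1.95 and 2.57 CPM in control, 18.7 and 16.3 in CpR, 1.82 and 2.47 in TxR and 3.59 and 4.19 in TxCpR. In both, the CpR libraries stood apart from all others, with differences of 3.93 ± 0.39 (adjusted p = 4.85e-15) for ITGA3 and 2.71 ± 0.29 (4.82e-13) for ITGA5. Inside ITGB8, at chr7:20384769-20385769, the control libraries held 2 reads each (0.260 and 0.257 CPM, under the level that a count of 0 allows) and the CpR libraries 12.4 and 9.59 CPM. The ratio of these ITGB8 levels was 42.6 (95% exact interval 16.4 to 158, counting error only), and limma gave 3.91 ± 0.46 (adjusted p = 1.61e-11). The peaks inside ITGA3, ITGA5 and ITGB8 were each picked for the smallest adjusted p of their span in CpR against control. Their differences and the interval are therefore not independent of that choice. At the ITGB8 peak the control libraries were below the 1 CPM of the filter. No ITGB8 peak was called higher in TxR or TxCpR. ITGA3 held 4 of 10 tested peaks higher in CpR, ITGA6 4 of 9 and ITGB8 4 of 5. LAMA5 held 5 of 17 and LAMC1 3 of 13, beside 18.3% of all tested peaks. ITGAE held 4 of 16, ITGAV 3 of 17, ITGB2 3 of 8, ITGB3 3 of 4, LAMA1 3 of 8 and LAMA3 3 of 9. ITGB5 is given below.

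Of the 285 peaks over the spans, ITGB5 carried the largest difference from control, and it held 2 sites with opposite patterns. At chr3:124772001-124773001 it measured 0.780 and 1.29 CPM in control, 0.225 and 0.702 in CpR, 26.6 and 23.3 in TxR and 27.8 and 26.4 in TxCpR. The site was near the floor in control and CpR and high in both paclitaxel-resistant derivatives, by 4.07 ± 0.28 (adjusted p = 5.04e-24) in TxR and 4.19 ± 0.28 (1.39e-24) in TxCpR. At chr3:124878371-124879371 it measured 0.520 and 1.80 CPM in control, 17.6 and 14.6 in CpR, 0.364 and 0.674 in TxR and 2.10 and 1.40 in TxCpR, a CpR difference of 3.43 ± 0.40 (5.88e-12). Both ITGB5 sites were picked for the smallest adjusted p of the span in a comparison with control. Over the 21 peaks of the ITGB5 span, 9 were higher and 1 lower in CpR, 2 higher in TxR and 7 higher in TxCpR, with medians of 0.41, 0.56 and 0.82. Among all tested peaks 18.3% were higher and 14.9% lower in CpR, 7.26% higher in TxR and 8.11% higher in TxCpR. The TxR count of ITGB5 was near its share. The count of higher ITGB5 peaks fell to 6 in CpR without CpR library 1 or after the regional median, to 1 in TxR without TxR library 2, and to 4 in TxCpR without TxCpR library 2. The TxR count was 4 under TMM, 5 under quantile and 6 under cyclic loess scaling.

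ITGAV and ITGB1, which form a receptor together, were the genes with the most lower peaks in TxR. Over ITGAV, 16 of 17 peaks were lower in TxR, 5 in TxCpR and 1 in CpR, where 3 were higher. Among all tested peaks 9.17% were lower in TxR, 5.39% in TxCpR and 14.9% in CpR, where 18.3% were higher. The CpR counts of ITGAV were not above these shares. The median difference over the ITGAV span was -1.43 in TxR, -0.77 in TxCpR and 0.15 in CpR, while the median of all tested peaks in the region around it was -0.26, -0.21 and -0.21. After the regional median was subtracted, 12 ITGAV peaks were lower in TxR. The TxR count for ITGAV fell to 9 without control library 1, and the TxCpR count to 3 without TxCpR library 1, 2 without TxCpR library 2 and 3 after the regional median, while quantile or cyclic loess scaling raised it to 9. Over ITGB1, 13 of 24 peaks were lower in TxR, 9 in CpR and 8 in TxCpR, and none was higher, with medians of -1.04, -0.73 and -0.39 against regional medians of -0.32, -0.38 and -0.08. With the regional median subtracted, 10 ITGB1 peaks were lower and 1 higher in TxR. The ITGB1 counts fell to 5 in CpR without control library 2 or CpR library 1, to 4 after the regional median, and to 3 in TxCpR without control library 2.

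A peak inside ITGB1 showed more than its gene end did. At chr10:32953268-32954268 the levels were 19.6 and 23.4 CPM in control, 17.8 and 17.3 in CpR, 7.89 and 6.74 in TxR and 6.18 and 7.52 in TxCpR. The paclitaxel-resistant libraries were well below the other 4, by -1.49 ± 0.19 (adjusted p = 3.03e-10) in TxR and -1.58 ± 0.19 (5.33e-11) in TxCpR, while CpR differed from control by -0.28 (0.268). Beside the uncalled gene end of ITGA6, the next peak, at chr2:172428257-172429257, was lower in all 3 derivatives, by -1.09, -1.15 and -1.02, with 8.58 and 10.7 CPM in control and 3.71 to 5.37 in the 6 resistant libraries. These 2 peaks were picked after their values were seen.

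**Figure D5:**
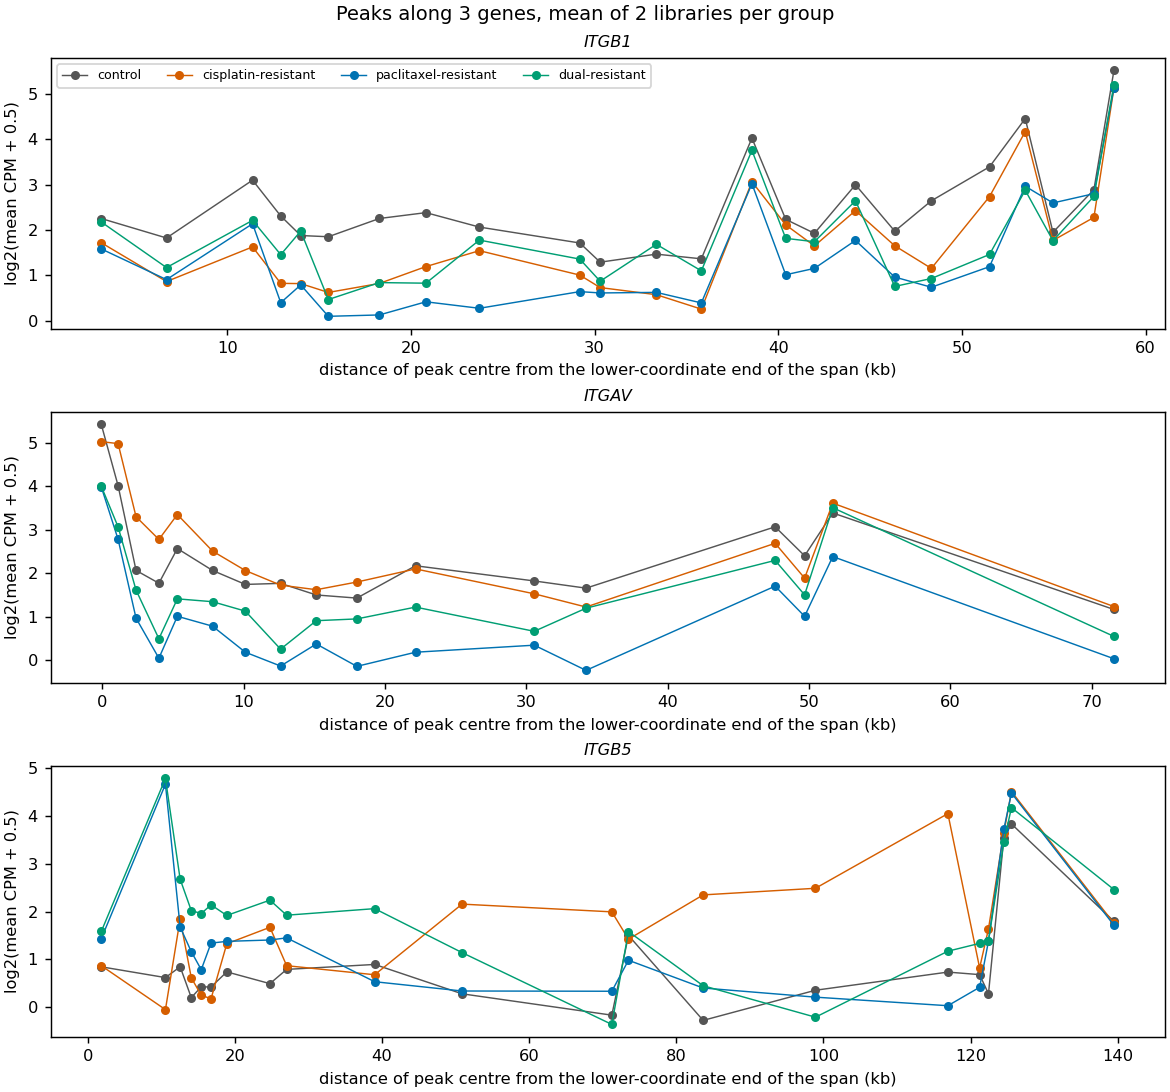
Mean level of each group, as log2(mean CPM + 0.5), at every peak over ITGB1, ITGAV and ITGB5, against distance in kb from the lower-coordinate end of the gene. Over ITGAV the TxR line runs under the control line, and in ITGB5 a peak stands out in TxR and TxCpR and another in CpR.

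The derivatives were also compared directly. TxCpR against CpR gave 10 higher and 9 lower gene ends of 33, against 19.6% and 16.9% of all. The higher were ITGA1, ITGA2, ITGA4, ITGA8, ITGA11, ITGAM, ITGAX, ITGB5, ITGB7 and LAMB1, from 0.58 for ITGA1 to 1.20 for ITGAX. The lower were ITGA3, ITGA6, ITGAV, ITGB2, ITGB3, ITGB8, LAMA2, LAMB3 and LAMC3, from -0.43 for ITGA3 to -1.68 for LAMB3. Without CpR library 1 the higher count was 6, without TxCpR library 1 it was 5, and without CpR library 2 the lower count was 4. Cyclic loess scaling gave 3 higher and 10 lower. After the regional median the calls of ITGA1, ITGA2, ITGA3, ITGA4, ITGA11, ITGAM, ITGB3, ITGB7, LAMA2 and LAMB1 were lost. The ITGA8 call (0.76) kept its direction but was lost under TMM, median-ratio and cyclic loess scaling and with edgeR. It was also lost with either other pseudocount and in the fit of only the 2 groups. The LAMB1 call was also lost under those 3 scalings and with edgeR.

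TxCpR against TxR gave 5 higher and 1 lower, against 7.58% and 24.3% of all. The higher were LAMA1 (1.80), ITGB2 (1.21), ITGA4 (0.90), ITGAX (0.77) and ITGA3 (0.51), and the lower was LAMA2 (-1.18). TMM scaling, which moved the median of all tested peaks from 0.23 to 0.02 here, gave 3 higher and 8 lower. After the regional median the calls of ITGA3, ITGA4, ITGAX and LAMA2 were lost. Without TxCpR library 1, 3 were higher, and without any 1 of the TxR or TxCpR libraries none was lower. TxR against CpR gave 6 higher and 7 lower, against 34.5% and 13.1%. ITGB2 (-2.82), LAMB3 (-1.76) and LAMA1 (-1.70) differed most, all lower in TxR, and for LAMA1 the regional median left -0.56, which was not called. Cyclic loess scaling gave 1 higher and 7 lower, and the higher count was 2 without CpR library 1, 3 without CpR library 2 and 0 without TxR library 2.

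Whether TxCpR departed from the sum of both single-resistant differences was tested as an interaction (TxCpR minus CpR minus TxR plus control), a positive value meaning that TxCpR lay above that sum. It was called at 17 of 33 gene ends, 13 positive and 4 negative, against 16.2% and 17.8% of all gene ends. The members' median was 0.40 beside 0.03. TMM scaling, which moved the all-peak median of the interaction from 0.22 to -0.06, gave 10 positive and 9 negative. ITGA8, with 2.32 (adjusted p = 1.7e-05), had a positive interaction although TxCpR was itself below control, since CpR and TxR were each lower by at least as much. ITGB2, with -1.41 (adjusted p = 0.0041), was high in CpR but only partly so in TxCpR.

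The genes that integrins and laminins work with were counted by lists. Of 38 focal adhesion and signalling genes with a gene-end peak (41 listed), 6 were higher and 11 lower in CpR, 6 and 6 in TxR, and 2 and 9 in TxCpR. That is 15.8% and 28.9% in CpR, beside 11.1% and 28.6% of all gene ends, 15.8% and 15.8% in TxR, beside 12.7% and 9.68%, and 5.26% and 23.7% in TxCpR, beside 4.86% and 14.8%. The CpR share of lower calls was thus near the background. ACTN1, which crosslinks actin, was higher in CpR (1.26 ± 0.12, adjusted p = 1.52e-15), from 20.0 and 23.8 CPM in control to 50.3 and 55.9. LIMS2, of the integrin-linked kinase complex, rose from 2.08 and 2.32 CPM to 16.4 and 17.5 in CpR (2.70, adjusted p = 1.23e-10). TGFB1I1, a relative of paxillin, was higher in CpR (1.16) and lower in TxR (-1.53), and TES, an actin-associated protein, was lower in TxR (-2.42) and TxCpR (-2.15). CAV1, the coat protein of caveolae, was lower in TxCpR (-1.33).

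Of 23 matrix ligands with a gene-end peak (28 listed), 4 were higher and 5 lower in CpR (17.4% and 21.7%, beside 11.1% and 28.6% of all gene ends), 2 and 7 in TxR (8.70% and 30.4%, beside 12.7% and 9.68%), and 1 and 7 in TxCpR (4.35% and 30.4%, beside 4.86% and 14.8%). TNC, tenascin-C, measured 2.86 and 2.83 CPM in control and 15.4 and 18.5 in CpR (2.38, adjusted p = 6.98e-10), and TNXB was also higher there (1.12). SPP1, osteopontin, was lower in CpR (-1.05), a call lost after the regional median (-0.55). POSTN, periostin, measured 5.59 and 5.79 CPM in control, 1.09 and 0.112 in TxR and 0.495 and 0.537 in TxCpR, with differences of -2.65 (adjusted p = 1.51e-07) and -2.61 (3.47e-07). THBS1 was lower in TxR (-1.68) and CCN2 in TxCpR (-2.03). EDIL3, a ligand of alpha-v integrins, was higher in TxR (2.02) and TxCpR (1.39), and the TxCpR value came to 0.08 after the regional median was subtracted.

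Of 18 basement membrane partners of laminins with a gene-end peak (20 listed), 3 were higher and 5 lower in CpR (16.7% and 27.8%, beside 11.1% and 28.6% of all gene ends), none and 8 in TxR (the latter 44.4%, beside 9.68%), and none and 4 in TxCpR (the latter 22.2%, beside 14.8%). FREM2, which with FRAS1 anchors epithelia to the basement membrane, measured 31.7 and 31.0 CPM in control, 27.5 and 22.7 in CpR, 4.74 and 3.26 in TxR and 2.97 and 2.90 in TxCpR. The fall was -2.84 (adjusted p = 1.50e-22) in TxR and -3.21 (1.03e-25) in TxCpR, and FRAS1 was lower by -1.23 and -1.33. NID1, which links laminin to collagen IV, was lower in TxCpR (-1.10, adjusted p = 4.28e-11), COL4A1, a collagen IV chain, in TxR (-2.12), and PXDN, which crosslinks collagen IV, was higher in CpR (1.10, adjusted p = 0.044), a call lost after the regional median was subtracted. Of 16 laminin receptors other than integrins (18 listed), 2 were higher and 4 lower in CpR (all gene ends 11.1% and 28.6%), 1 and 6 in TxR (12.7% and 9.68%), and 2 and 3 in TxCpR (4.86% and 14.8%). The CpR shares of this list were near the background, and 37.5% of it was lower in TxR.

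DMD, dystrophin, which ties the dystroglycan receptor to actin, was higher in CpR (1.40, adjusted p = 6.04e-12), and SGCB was lower there (-1.09). UTRN, its relative, was lower in TxR (-1.22) and TxCpR (-1.09), the syndecan SDC2 was lower in TxR (-1.44, adjusted p = 6.63e-15), and SSPN was lower in TxCpR (-1.04). Of 10 tetraspanins and other membrane partners of integrins (11 listed), 1 was higher (PLAUR) and 2 lower (CD81 and CD82) in CpR, 2 were lower in TxR (CD82 and SLC3A2), and limma called none in TxCpR. The CpR shares, 10% and 20%, were near or below the 11.1% and 28.6% of all gene ends. In TxR 20% were lower, beside 9.68% of all, and none was higher, beside 12.7%. The TxR median was -0.32 beside 0.01, on only 10 genes. In TxCpR all gene ends were higher in 4.86% and lower in 14.8%.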

How the data were processed

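The authors deposited CPM values (reads scaled to a common library total) for 159451 peaks of 1001 bp in 8 ATAC-seq libraries, and Bowtie2, Picard, MACS2 and hg38 are named in the submitters' processing notes, with roles and settings not given in the sources used here. Dividing the deposited CPM by the step of each library gave whole reads within 0.01 read for 100% of values. Of the peaks, 158698 that reached 1 CPM in 2 or more libraries entered the test, by limma 3.58.1 (R 4.3.3) on log2(CPM + 0.5), all 4 groups in 1 fit and a trended prior, with 4 residual and 98.5 prior degrees of freedom, and Benjamini-Hochberg adjustment over all tested peaks. The fit was tested on simulated data with few changed peaks, balanced between higher and lower. That test does not cover the many unbalanced calls between the groups here. edgeR 4.0.16 on the recovered reads, other scalings, pseudocounts and filters, a regional median (all tested peaks within 2.5 Mb) and leaving out each library were alternatives. Peaks inside genes could not be assigned to exons or introns here. CPM scaling hides a change shared by all peaks.

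The list of member names and the other gene lists were drawn up with earlier results of these data known, although the rule itself uses no value. Members described library by library were those called against control by 1 log2 unit or more at the gene-end or strongest peak, plus ITGB1, ITGA6, LAMB1 and LAMC1. ITGA3, ITGA4, ITGB8 and the start peak of ITGB5 fall outside that rule and were given library by library after their values were seen. Others are named with their range, difference or part of their values. Inside a span, the peak of smallest adjusted p was named where its difference was at least 2, for at most 6 genes a comparison, and at most 3 genes a pathway list and comparison, of which 1 is not reported here.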

Additional observations from a re-analysis of the deposited data

Results flagged for a closer look

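At 17 gene ends the interaction was called, meaning that the dual-resistant cells departed from the sum of the cisplatin-resistant and paclitaxel-resistant differences from control. Positive values were found for ITGA8 (2.32), LAMA1 (2.20), ITGAM (1.82), ITGAX (1.80), LAMA3 (1.60), ITGA11 (1.59), ITGA4 (1.39), ITGA2 (1.33), LAMB1 (1.09), ITGA1 (0.97), ITGB7 (0.68), LAMC1 (0.49) and ITGB1 (0.47). Negative values were found for LAMA2 (-2.04), ITGB2 (-1.41), LAMC3 (-1.01) and ITGB3 (-0.84). The calls of ITGA2, ITGA8, ITGAM, ITGAX, ITGB2 and LAMA1 were kept under all 19 alternatives run. The calls of ITGB1 and LAMC1 were lost under 8 of 19, and their values reached -0.13 and -0.20. The regional median ended the calls of ITGA1 (0.24), ITGA4 (0.22), LAMA3 (0.78) and LAMA2 (-0.81), and LAMB1 lost its call under median-ratio and cyclic loess scaling and with edgeR. Those of ITGB7 and ITGB3 were lost under 11 and 7 of 19. ITGA11 lost its call without control library 1 and under cyclic loess scaling, and ITGB3 without control library 1 or 2, CpR library 2, TxR library 1 or either TxCpR library. LAMC3 lost it without control library 1, CpR library 2, TxR library 2 or TxCpR library 2.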

How the results depend on the processing

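Counts below are of members called, for gene ends unless stated. With the replicate number as a block (replicate block), every count was as in the unblocked fit: higher and lower 3 and 12 in CpR, 0 and 8 in TxR, 2 and 3 in TxCpR, and 13 and 4 for the interaction. Libraries sharing a number did not deviate together (correlations -0.0006 to 0.0033), so the numbers are not taken to pair them. TMM scaling gave 5 higher in TxR, 9 lower in TxCpR, 8 lower in TxCpR against TxR and 3 higher there, and 9 negative interactions. At strongest peaks it gave 6 higher in TxR and 10 lower in TxCpR, and over spans 15 higher in TxR and 27 lower in TxCpR. Median-ratio scaling gave 5 higher in CpR, 5 higher in TxR, 7 lower in TxCpR, 6 higher in TxCpR against CpR, 3 higher and 8 lower in TxCpR against TxR and 9 negative interactions. At strongest peaks it gave 6 higher and 8 lower in TxR and 8 lower in TxCpR, and over spans 15 higher in TxR. edgeR gave 4 higher in TxR, 9 lower in TxCpR, 3 higher and 7 lower in TxCpR against TxR and 9 negative interactions. At strongest peaks it gave 7 higher in TxR and 11 lower in TxCpR, and over spans 12 higher in TxR and 30 lower in TxCpR. Cyclic loess gave 5 higher and 7 lower in CpR, 1 higher in TxR, 3 higher in TxCpR against CpR, 2 lower in TxCpR against TxR and 1 higher in TxR against CpR, with 7 higher and 7 lower strongest peaks in CpR and 11 higher over spans in TxR. Quantile scaling gave 1 higher in TxR and, over spans, 9. Subtracting the regional median gave 3 higher in TxR, 5 higher in TxCpR against CpR, 3 higher and 3 lower in TxCpR against TxR and 8 positive interactions. At strongest peaks it gave 6 higher and 7 lower in TxR and 4 lower in TxCpR, and over spans 26 lower in CpR and 12 higher in TxR. A filter of 3 CPM gave 0 lower in TxCpR against TxR. Fitting only the 2 groups gave 5 lower in TxCpR, and 4 at strongest peaks. The cause of these moves was not tested.

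Leaving out each library in turn gave, in CpR, 2 to 4 higher and 9 to 12 lower, in TxR 0 to 1 and 6 to 9, and in TxCpR 1 to 2 and 3 to 4. TxCpR against CpR gave 5 to 10 higher and 4 to 9 lower, TxCpR against TxR 3 to 6 and 0 to 1, TxR against CpR 0 to 6 and 7 to 8, and the interaction 10 to 14 positive and 2 to 4 negative. Strongest peaks gave 4 to 5 higher and 8 to 13 lower in CpR, 0 to 2 and 7 to 13 in TxR, and 0 to 0 and 2 to 4 in TxCpR. Spans gave 52 to 71 higher and 21 to 40 lower in CpR, 3 to 5 and 30 to 53 in TxR, and 6 to 15 and 9 to 19 in TxCpR. ITGA6 in CpR ran from -0.068 (without control library 1) to 0.13 (without control library 2), and was also negative without CpR library 2 (-0.06). ITGA6 in TxR ran from -0.14 (without control library 1) to 0.052 (without control library 2), and was also positive without TxR library 2 (0.0017), under TMM (0.11), median-ratio (0.12), cyclic loess (0.028) and edgeR (0.11). LAMC1 in TxR came to 0.014 after the regional median. Of the values at single peaks under alternatives, 727 kept direction and call, 33 lost the call, 11 gained it and 9 changed sign. Gene ends under 10 CPM, 19 of 33, rest on the fewest reads.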
